A study of Homo sapiens with 42 samples.

Results

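The extracellular matrix genes described here are the 97 genes, of 57820 in the tables, whose symbol matched a collagen chain (44), a laminin chain (12), a matrix metalloproteinase (MMP, 22) or an ADAMTS protease (19). They were chosen by symbol alone, with no measured value in the rule. The samples were 42 RNA sequencing libraries from 5 established human lines of B-ALL (B-cell acute lymphoblastic leukaemia). Reh (n = 2 per arm) and 697 (n = 3 per arm) were engineered to overexpress NSD2, a histone H3 lysine methyltransferase that the tables list under its older symbol WHSC1. Their arms were EK (NSD2 with the E1099K substitution), WT (wild-type NSD2) and EV (an empty vector). Short hairpin RNAs were put into SEM, RS411 (the RS4;11 line) and RCH (the RCH-ACV line), whose arms were sh2 and sh5 (2 hairpins) and NT (a non-targeted control), n = 3 per arm. Only sh2 is introduced as lowering NSD2 by the submitters' design text, and sh5 is known from sample titles alone. All cells were grown in the same serum-supplemented medium with no drug treatment given. All 3 knockdown lines are known to carry the E1099K substitution themselves, so their hairpins meet a mutant as well as a wild-type transcript. The labels do not say which promoter drives the vectors, whether an arm is 1 clone or a pool, or whether replicates are separate cultures, so p-values measure only the spread between these samples.

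Collagens assemble from 3 chains into fibrils, networks or fibril-bound molecules, and laminins join an alpha, a beta and a gamma chain into the cross-shaped units of basement membranes. MMPs and ADAMTS proteases are zinc enzymes that cut these proteins or their precursors, and the membrane-anchored MMPs act at the cell surface. In bone marrow most matrix is made by stromal, endothelial and bone-lining cells, and lymphoid cells are known mainly for adhering to it and for a limited set of proteases.

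The targeted gene was read first. NSD2 stood at 1831 and 1533 CPM (read counts scaled to a common library size) in Reh EK and 1747 and 1637 CPM in Reh WT, against 576 and 581 CPM in EV, with log2 fold changes of 1.54 ± 0.12 (SE, adjusted p = 0.0168) and 1.55 ± 0.12 (adjusted p = 0.0135) in edgeR's quasi-likelihood test. With single libraries of Reh left out, those calls held in 1 of 4 fits for EK (adjusted p up to 0.152) and in 0 of 4 for WT (up to 0.141). In 697 it averaged 85908 normalized counts in EK, 93068 in WT and 9767 in EV (limma adjusted p 6.65e-05 and 2.73e-05). In SEM it fell by 0.99 ± 0.06 with sh2 and by 1.28 ± 0.06 with sh5 on the log2 scale (edgeR adjusted p 8.92e-09 and 1.87e-09). In RS411 every hairpin library lay below every NT library (155, 157 and 254 CPM with sh2, 167, 142 and 210 CPM with sh5, 289, 329 and 305 CPM with NT), and so it was in RCH, but neither line passed edgeR's test (adjusted p 0.118 and 0.164 in RS411, 0.0952 and 0.508 in RCH). DESeq2 called NSD2 in RS411 with sh2 (0.00500) and sh5 (0.00110) and in RCH with sh2 (0.0208), and not in RCH with sh5 (0.0806). Libraries held 21876505 to 67651596 reads. Of 13 B-lymphoid markers, 11 to 13 reached 1 CPM in each arm, and the summed epithelial markers reached at most 0.51 CPM. Myeloid markers summed to 34.9 to 49.99 CPM in SEM sh2 and 44.1 to 56.7 CPM in SEM sh5, against 14.5 to 21.6 CPM in SEM NT. B-lymphoid markers summed to 1367 to 1429.6 CPM and 1379.9 to 1447 CPM in those arms, against 1658 to 1771 CPM in NT, and stromal markers to 262 to 265 CPM and 254 to 280.4 CPM, against 215 to 238 CPM. In RCH sh2 the myeloid sum was 11.96 to 17.8 CPM, against 18.9 to 25.7 CPM in NT, and in RS411 the endothelial sum was 1.92 to 4.0 CPM with sh2 and 2.51 to 3.41 CPM with sh5, against 4.06 to 5.29 CPM with NT. In Reh the myeloid sum was 17.9 to 20.1 CPM in WT, against 21.4 to 25.4 CPM in EV, and the endothelial sum 1.39 to 1.75 CPM in EK, against 1.81 to 2.23 CPM in EV. These marker sums are CPM of total reads, and their part in the results was not tested.

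Libraries of 3 arms stood apart for genes of connective tissue cells, so their values come before the results. DCN, the fibroblast proteoglycan decorin, measured 2.63 CPM in RS411 sh5 replicate 1, 2.11 CPM in RCH sh2 replicate 1 and 0.67 CPM in SEM NT replicate 1. The highest of the other libraries of the same line had 0.0231, 0.0361 and 0.265 CPM, and that last value belonged to SEM sh5 replicate 3. The type I collagen chain COL1A2 and the type III collagen gene COL3A1 moved with it. COL1A2 reached 8.25, 7.02 and 2.90 CPM and COL3A1 7.26, 7.96 and 3.02 CPM in the same 3 libraries. COL1A1, the other type I chain, was not found by the search described next. A search made after these values were seen, over the 36 libraries in arms of 3, asked for members at 0.5 CPM or more and at least 5 times the next library of the arm. It found 7 members in RS411 sh5 replicate 1 (ADAMTS1, COL12A1, COL1A2, COL3A1, COL6A5, LAMA4 and LAMB1), 5 in RCH sh2 replicate 1 (COL1A2, COL3A1, COL6A5, LAMA4 and LAMB2), 2 in SEM NT replicate 1 (COL1A2 and COL3A1) and 1 in SEM sh5 replicate 3 (COL1A2). Of the 10 stromal markers, 5, 4 and 6 were highest of the line's 9 libraries in RS411 sh5 replicate 1, RCH sh2 replicate 1 and SEM NT replicate 1, while LUM had no read in them. Their summed level was 124 CPM in the RS411 library (110 to 120 CPM in the others) and 162 CPM in the RCH library (105 to 185 CPM). The SEM library had 216 CPM (232 to 281 CPM in the others). Most of the sum was PDGFRB in the RCH library (155 CPM). PDGFRB (59.3 and 94.9 CPM) and TWIST1 (55.4 and 117 CPM) made up most of it in the RS411 and SEM libraries. The part of these reads in the results was not tested, and results that change without the 3 libraries are given with both values. The 3 left out are those with over 0.5 CPM of DCN, so SEM sh5 replicate 3 stayed in. In bulk RNA, fewer cells of a type and less RNA per cell cannot be told apart.

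**Figure D1:**
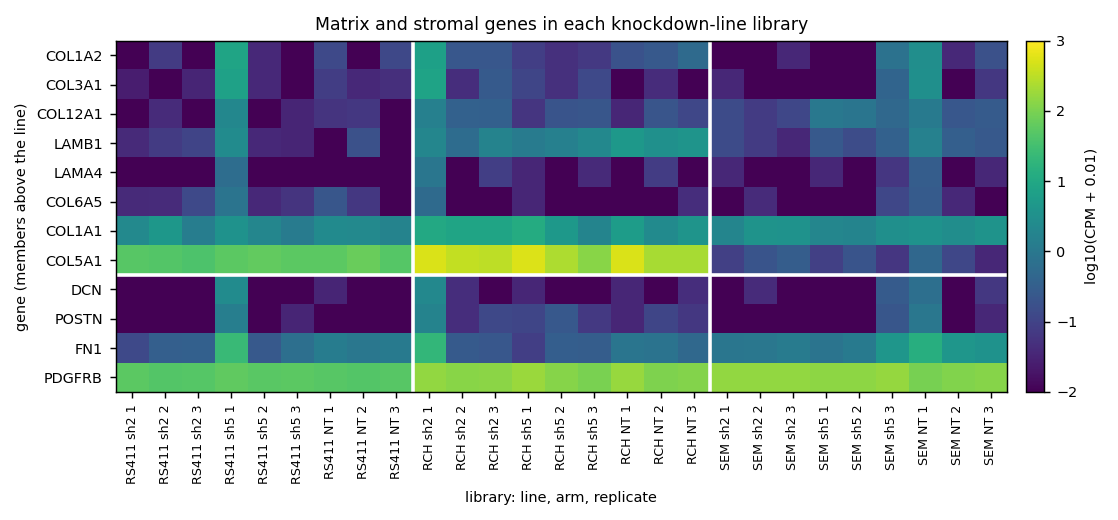
Levels of 8 members and of 4 connective tissue genes (below the white line) in each of the 27 libraries of the knockdown lines, as the colour of log10(CPM + 0.01), with sh2 and sh5 left of NT in each line. COL1A2, COL3A1, DCN and FN1 stand up in RS411 sh5 replicate 1, RCH sh2 replicate 1 and SEM NT replicate 1, and COL5A1 is bright in replicate 1 of each RCH arm.

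Most of the matrix genes were near silent. Levels set across lines are CPM of a library's total reads without further scaling, which in 697 come from whole reads recovered from the normalized counts. Of the 97, 52 stayed under 1 CPM in the control arm of every line, while 13 reached 1 CPM in all 5 control arms. Those 13 were the collagens COL1A1, COL7A1, COL9A2, COL9A3, COL11A2 and COL27A1, the laminin chains LAMA3 and LAMC1, the metalloproteinases MMP11 and MMP17, and ADAMTS6, ADAMTS10 and ADAMTS13. Of these, LAMC1, COL27A1, MMP11 and ADAMTS10 reached 10 CPM in all 5. The control arms held 24 members at 1 CPM or more in Reh, 26 in 697, 22 in RS411, 33 in RCH and 25 in SEM. After the filter on low counts 32, 40, 31, 44 and 29 members were tested in those lines, 16 of them in every line, and 39 of the 97 were tested in none.

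Levels of different genes were compared per kilobase of the longest coding transcript, over all arms of a line. LAMC1, the gamma chain of most laminins, ranked among the 5 highest members in every line, at 7.52 CPM per kb in Reh, 36.5 in 697, 10.8 in RS411, 21.6 in RCH and 14.8 in SEM. MMP11 (stromelysin 3, a metalloproteinase activated inside the secretory pathway) did so too, at 6.89, 18.8, 10.4, 17.1 and 12.1 CPM per kb in the same order of lines. The other leading members set the lines apart. COL5A1, a fibrillar collagen chain that helps set fibril width, led in Reh (49.0 CPM per kb) and RCH (40.6) and stood at 0.20 CPM in the SEM controls, against 461 CPM in those of Reh. COL4A2 (22.5 CPM per kb) and COL4A1 (17.1), the chains of the main basement membrane collagen, were also among the 5 highest in 697. MMP14, the membrane-anchored collagenase MT1-MMP, led in SEM at 44.0 CPM per kb and was among the 5 highest in RS411 (5.14) and RCH (8.91). COL27A1, a fibrillar collagen of cartilage, reached 13.5 CPM per kb in Reh and 14.6 in 697. The list of the 5 highest was completed by ADAMTS10 in Reh (6.07), RS411 (9.67) and SEM (5.55), COL5A1 in RS411 (6.38), COL6A2 in RCH (13.3) and ADAMTS18 in SEM (4.23). Each line is a single line of its kind, so differences between lines carry no test here.

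**Figure D2:**
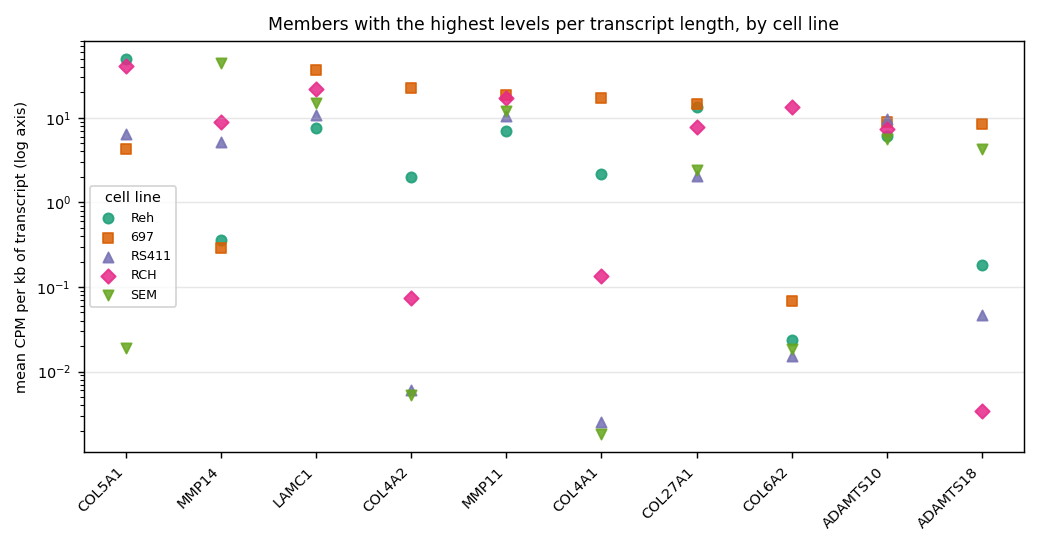
Mean level of the leading matrix genes in each line, in CPM per kilobase of coding transcript on a log axis, over all arms. LAMC1 and MMP11 are among the 5 highest in every line, whereas COL5A1, MMP14 and the COL4A1 and COL4A2 pair differ widely between lines.

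Some members reached 1 CPM in the controls of 1 line alone, without being absent from the others. The control arm of a single line reached 1 CPM for 13 members: COL16A1, COL23A1, COL6A1, COL6A2, COL8A2 and MMP2 in RCH, ADAMTS12, COL24A1 and LAMB3 in 697, ADAMTS16 in Reh, MMP25 in RS411, and COL1A2 and COL3A1 in SEM, where a single NT library carried them. MMP9, a gelatinase of myeloid cells, stayed at or under 0.08 CPM in the control arm of every line. MMP2, the gelatinase that MMP14 activates, averaged 2.71 CPM in RCH NT and at most 0.11 CPM in the other control arms.

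NSD2 overexpression left few of these genes past the threshold of an adjusted p under 0.05, set over all genes tested. In Reh, 1 of 32 members was called in WT (MMP16, higher), where 0.188% of all genes tested were called higher. In Reh EK, edgeR called 0 of 32 members, with 34 of 15972 genes called in all (0.213%). DESeq2 called 3 members, with 210 genes called in all. At an unadjusted p under 0.05 there were 11 members of 32, beside 6.15% of all genes. In 697, limma called 0 of 40 members in EK (0.172% of all genes) and 0 of 40 in WT (0.19%), and edgeR on whole reads recovered from the normalized counts called 0 in each. At an unadjusted p under 0.05 there were 7 members in EK and 7 in WT, beside 4.84% and 2.87% of all genes. Same-numbered 697 libraries deviated together, and with replicate number added as a block 3 members were called in EK (COL4A1, COL24A1 and COL5A2, beside 1.37% of all genes) and 3 in WT (COL5A2, COL24A1 and LAMA5, beside 1.34%). The same block in Reh, n = 2 per arm, called 13 of 32 members in EK (6.43% of all genes) and 8 in WT (3.94%). With so few libraries it could not be told whether Reh numbers pair.

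Knockdown moved members in every line, and SEM had the most calls. In RS411, 3 of 31 members rose with sh2 (COL8A2, COL18A1 and MMP17), where 0.944% of all genes were called higher, and 2 rose with sh5 (COL8A2 and COL18A1), where 0.46% were. In RCH, 3 of 44 rose with sh2 (COL8A2, MMP14 and ADAMTS12, beside 1.17% of all genes) and 1 rose with sh5 (COL8A2, beside 0.0229%). In SEM, 5 of 29 rose and 14 fell with sh2 (13.5% and 14.4% of all genes), and 5 rose and 8 fell with sh5 (11.1% and 10.2%). The median log2 fold change of the tested members was -0.40 with sh2 and -0.14 with sh5 in SEM, -0.22 and -0.02 in RS411 and 0.14 and 0.09 in RCH, while that of all genes tested lay between -0.02 and 0.01. Same-numbered libraries of RS411, of RCH sh5 and of SEM deviated together too. With the block RS411 sh2 had 10 members called (14.5% of all genes), RS411 sh5 had 6 (5.41%) and RCH sh5 had 2 (0.263%). SEM sh2 had 21 members called with it (37.9% of all genes) and SEM sh5 had 16 (32.8%). Without the 3 libraries that stood apart, 0 members in place of 2 passed in RS411 sh5, 2 in place of 1 in RCH sh5, 15 in place of 19 in SEM sh2 and 14 in place of 13 in SEM sh5, and RS411 sh2 and RCH sh2 kept the same 3 each. The 2 members of RS411 sh5 then had edgeR adjusted p values of 0.0617 (COL18A1) and 0.0502 (COL8A2), with log2 fold changes of 4.34 ± 0.71 and 2.55 ± 0.39, against 4.30 and 2.53 with all libraries. Over all genes 12 were called there, against 82 with all libraries. In SEM the genes called without those libraries were 4832 with sh2, against 4760, and 3899 with sh5, against 3623. They were 118 in RS411 sh2, against 286, 74 in RCH sh2, against 239, and 13 in RCH sh5, against 4.

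**Figure D3:**
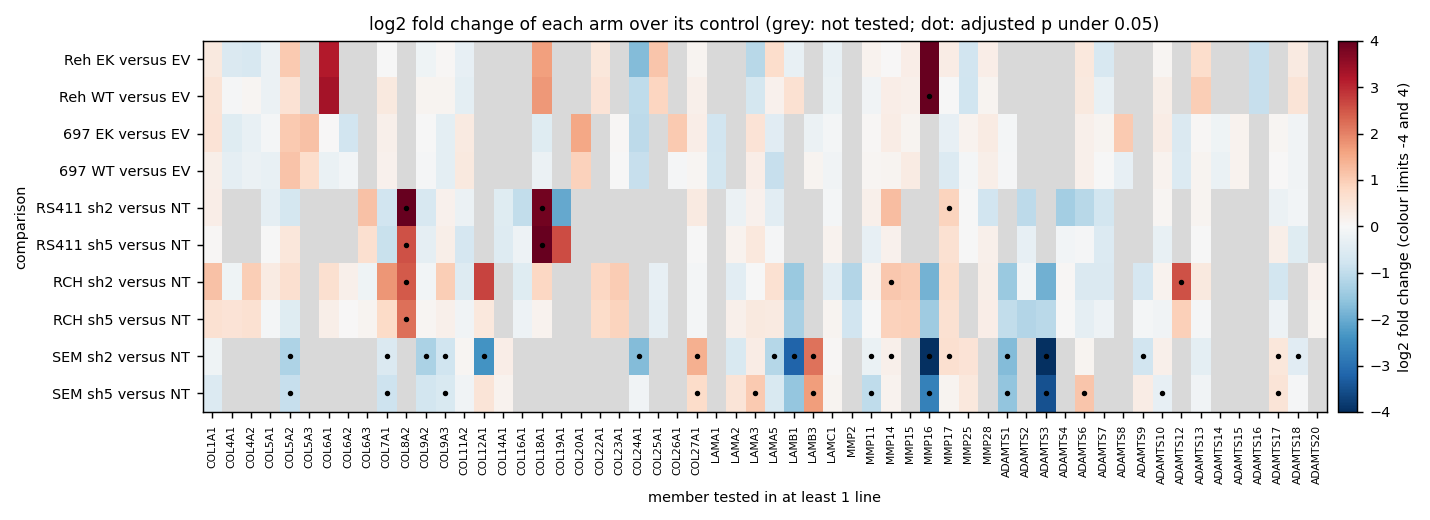
Log2 fold change of each tested member (columns) over the control arm of its line in the 10 comparisons (rows), with colour limits of -4 and 4, dots on called members and grey where a gene was not tested. The SEM rows hold 32 of the dots, and COL8A2 has a dot in both hairpin rows of RS411 and of RCH. The dark MMP16 cells in Reh are fitted values against an arm with no reads.

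Among basement membrane collagens, COL4A1 and COL4A2 are transcribed in opposite directions from neighbouring starts on chromosome 13 and their chains are known to join in 1 molecule. Their promoters are shown because the pair's values move side by side. The windows run from 250 bases before to 50 bases after the RefSeq start (GRCh38.p14), 5′ to 3′ on the gene's own strand, chr13:110307108-110307407 on the minus strand for COL4A1 and chr13:110307034-110307333 on the plus strand for COL4A2. Capitals mark GGGCGG and CCAAT read on either strand, with no overlap between the motifs.
COL4A1: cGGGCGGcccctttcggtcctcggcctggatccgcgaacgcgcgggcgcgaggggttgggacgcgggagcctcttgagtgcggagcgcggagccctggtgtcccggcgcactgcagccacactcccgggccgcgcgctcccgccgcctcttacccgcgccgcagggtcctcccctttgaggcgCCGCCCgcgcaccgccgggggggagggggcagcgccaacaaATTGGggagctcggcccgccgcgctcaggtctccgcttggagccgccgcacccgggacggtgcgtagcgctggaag
COL4A2: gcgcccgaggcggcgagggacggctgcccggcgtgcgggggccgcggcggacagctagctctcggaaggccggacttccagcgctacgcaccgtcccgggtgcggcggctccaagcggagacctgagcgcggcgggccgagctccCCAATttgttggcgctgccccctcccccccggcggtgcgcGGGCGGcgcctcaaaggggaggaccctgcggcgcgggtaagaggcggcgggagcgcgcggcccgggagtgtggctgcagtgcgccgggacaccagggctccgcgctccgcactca
The starts lie 127 bases apart and the windows share 226 bases. Each window holds 45 CG dinucleotides, against a median of 14 over 35116 RefSeq promoters of the same length. COL4A1 has 2 matches to GGGCGG and COL4A2 has 1, and CCAAT matches once in each. The GGGCGG and CCAAT matches of COL4A2 lie in the shared bases. They are sites also counted in the COL4A1 window, read on the other strand. Of all those promoters 44.95% hold the first motif and 34.6% the second, so the matches describe the letters only.

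In 697, COL4A1 measured 4308, 4417 and 5277 normalized counts in EK and 4730, 4897 and 5484 in WT, against 6652, 6372 and 6475 in EV. Every library with added NSD2 was thus below every EV library. COL4A2 gave 5818, 6689 and 6760 normalized counts in EK and 6414, 6958 and 6523 in WT, against 7821, 8199 and 7612 in EV, again without overlap. The log2 fold changes of COL4A1 were -0.48 ± 0.12 in EK and -0.37 ± 0.12 in WT (limma adjusted p 0.358 and 0.962), which did not pass. With the replicate block the adjusted p of COL4A1 was 0.0134 in EK and 0.0505 in WT, and that of COL4A2 was 0.0920 and 0.209. In Reh, COL4A1 had 8.54 and 13.2 CPM in EK and 15.4 and 16.4 CPM in WT, against 14.6 and 18.0 CPM in EV. COL4A2 had 7.86 and 10.6 CPM in EK and 15.7 and 14.4 CPM in WT, against 14.1 and 14.6 CPM in EV. There the EK libraries of both genes lay below EV and the WT libraries overlapped with it, none of it past the test (edgeR adjusted p 0.404 to 1). In RCH with sh2 the pair parted, at under 1 CPM. COL4A1 averaged 0.716 CPM, against 0.803 CPM with NT, and COL4A2 0.641 CPM, against 0.314 CPM with NT. The log2 fold changes were -0.16 ± 0.31 and 0.97 ± 0.54 (edgeR adjusted p 0.809 and 0.341). With sh5 in RCH they were 0.53 ± 0.30 and 0.61 ± 0.53. In RS411 and SEM both genes had almost no reads.

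COL18A1, the basement membrane collagen that endostatin is cut from, was called in RS411. It measured 0.927, 0.917 and 0.307 CPM with sh2 and 0.941, 0.889 and 1.10 CPM with sh5, against 0.0230, 0.111 and 0 CPM with NT. All 6 hairpin libraries were above all NT libraries, at levels of about 1 CPM or less. The log2 fold changes were 3.86 ± 0.67 (edgeR adjusted p = 0.0221) and 4.30 ± 0.65 (adjusted p = 0.0152). The sh2 call was lost without NT replicate 1 or 3 or without sh2 replicate 1 or 2 (adjusted p 0.0571 to 0.114), and the sh5 call without NT replicate 1 or 3 or sh5 replicate 1 (0.0504 to 0.118). In Reh, COL18A1 had 1.90 and 1.46 CPM in EK and 1.92 and 1.68 CPM in WT, against 0.376 and 0.694 CPM in EV (adjusted p 0.251 and 0.274). Exons of COL18A1 overlap those of SLC19A1 on the other strand. No source used here gives the strand setting of the counting, and without strand the reads of the pair cannot be told apart. The same holds for other members described here whose exons overlap a gene on the other strand: COL4A2 (COL4A2-AS1 and COL4A2-AS2), COL9A3 (TCFL5), COL19A1 (LMBRD1), LAMA5 (ADRM1 and LAMA5-AS1), LAMB1 (AC005046.1 and DLD), ADAMTS9 (ADAMTS9-AS1), ADAMTS17 (AC084855.1), ADAMTS18 (AC009139.1), and MMP11, MMP16 and ADAMTS3 below. It holds as well for COL16A1 (AC114488.2), LAMA4 (Z99289.1), MMP9 (SLC12A5-AS1) and MMP25 (MMP25-AS1), named above.

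Laminin chains were led by LAMC1, which was tested in every line and called in none of the 10 comparisons. LAMA3 and LAMB3, chains of the laminin that anchors epithelia, rose in SEM. With sh5 LAMA3 had 16.3, 17.0 and 14.5 CPM, against 6.74, 8.39 and 8.12 CPM with NT (log2 fold change 1.04 ± 0.11, edgeR adjusted p = 6.59e-06), and its sh2 value of 0.30 ± 0.11 was not called (0.0567, and 0.0161 with the replicate block). LAMB3 had 1.05, 1.25 and 0.709 CPM with sh2 and 0.475, 0.722 and 0.926 CPM with sh5, against 0.174, 0.134 and 0.347 CPM with NT. Its groups did not overlap, with log2 fold changes of 2.17 ± 0.40 and 1.67 ± 0.41 (adjusted p 0.000695 and 0.00831). A pair of laminin chains at low levels fell in SEM with sh2. LAMB1 had 0.128, 0.0627 and 0.0262 CPM with sh2, against 1.57, 0.323 and 0.240 CPM with NT, where the highest NT value came from the library that stood apart. Its log2 fold change was -3.20 ± 0.87 (adjusted p = 0.0173) and -1.89 ± 0.66 without that library (0.0434), and without sh2 replicate 2 or 3 the call was lost (up to 0.0695). LAMA5 had 0.205, 0.220 and 0.236 CPM with sh2, against 0.552, 0.538 and 0.374 CPM with NT (-1.13 ± 0.37, adjusted p = 0.0316). It was called in 1 of the 6 fits that leave out a library, the one without NT replicate 3, with an adjusted p up to 0.101 in the others.

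Outside SEM, edgeR and limma without the block called no laminin. In Reh, LAMA3 had 11.4 and 17.9 CPM in EK and 17.4 and 21.9 CPM in WT, against 27.5 and 36.1 CPM in EV (EK log2 fold change -1.11 ± 0.26, edgeR adjusted p = 0.255, and 0.00819 by DESeq2). The 697 libraries lay the other way, with 252, 226 and 283 normalized counts in EK, against 140, 173 and 219 in EV (0.53 on the log2 scale). In 697, LAMA5 had 63.6, 98.0 and 123 normalized counts in WT, against 113, 187 and 245 in EV. The groups overlapped, but replicate 1 was lowest and replicate 3 highest in both arms, and with the replicate block the limma adjusted p was 0.010. LAMB1 in RCH had 1.92, 0.567 and 1.75 CPM with sh2 and 1.21, 1.5 and 2.12 CPM with sh5, against 4.60, 3.23 and 3.92 CPM with NT, without overlap and not called by edgeR (adjusted p 0.101 and 0.798, and 0.0106 and 0.178 by DESeq2).

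COL8A2, a chain of the network-forming collagen of the corneal Descemet membrane, rose with both hairpins in RS411 and in RCH. Its promoter, and that of MMP14 described further on, are printed because these genes rose in more than 1 line. Both windows run from 250 bases before to 50 bases after the RefSeq start (GRCh38.p14), chr1:36125173-36125472 on the minus strand for COL8A2 and chr14:22836335-22836634 on the plus strand for MMP14, with the same motifs in capitals.
COL8A2: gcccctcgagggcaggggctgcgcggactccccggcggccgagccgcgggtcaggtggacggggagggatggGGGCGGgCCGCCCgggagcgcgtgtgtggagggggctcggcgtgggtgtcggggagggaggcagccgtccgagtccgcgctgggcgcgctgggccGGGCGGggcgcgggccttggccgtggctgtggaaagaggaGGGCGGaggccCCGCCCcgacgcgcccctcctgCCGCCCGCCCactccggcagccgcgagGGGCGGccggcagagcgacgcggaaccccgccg
MMP14: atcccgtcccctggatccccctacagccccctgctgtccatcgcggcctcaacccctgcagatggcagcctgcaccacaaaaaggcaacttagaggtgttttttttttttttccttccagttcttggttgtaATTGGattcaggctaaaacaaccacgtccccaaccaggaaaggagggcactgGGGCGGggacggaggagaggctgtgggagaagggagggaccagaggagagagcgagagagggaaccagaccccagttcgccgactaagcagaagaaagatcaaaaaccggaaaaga
The COL8A2 window holds 45 CG dinucleotides and 8 matches to GGGCGG with none to CCAAT, and the MMP14 window 10 CG dinucleotides and 1 match to each motif. TATAAA was found in none of the 4 windows shown and in 11.5% of all promoters.

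In RS411, COL8A2 measured 4.94, 3.92 and 2.48 CPM with sh2 and 1.09, 0.943 and 1.27 CPM with sh5, against 0.185, 0.166 and 0.219 CPM with NT. In RCH it measured 48.6, 32 and 26.5 CPM with sh2 and 33.8, 24.8 and 31.0 CPM with sh5, against 5.82, 5.59 and 7.92 CPM with NT. In both lines every hairpin library stood above every NT library, and in RS411 every sh2 library stood above every sh5 library. The RS411 log2 fold changes were 4.31 ± 0.33 with sh2 (edgeR adjusted p = 0.000284) and 2.53 ± 0.35 with sh5 (adjusted p = 0.0117), and those of RCH were 2.46 ± 0.25 (0.00516) and 2.21 ± 0.24 (0.0374). The sh2 calls held whichever library was left out. The sh5 call in RS411 was lost without NT replicate 1 or 2 or sh5 replicate 1 (adjusted p 0.0502 to 0.0892), and that in RCH without any NT replicate or sh5 replicate 1 or 3 (0.0567 to 0.302). SEM held 0, 2 and 1 reads of COL8A2 in the sh2, sh5 and NT arms. In Reh and 697 its level was too low for it to be tested.

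**Figure D4:**
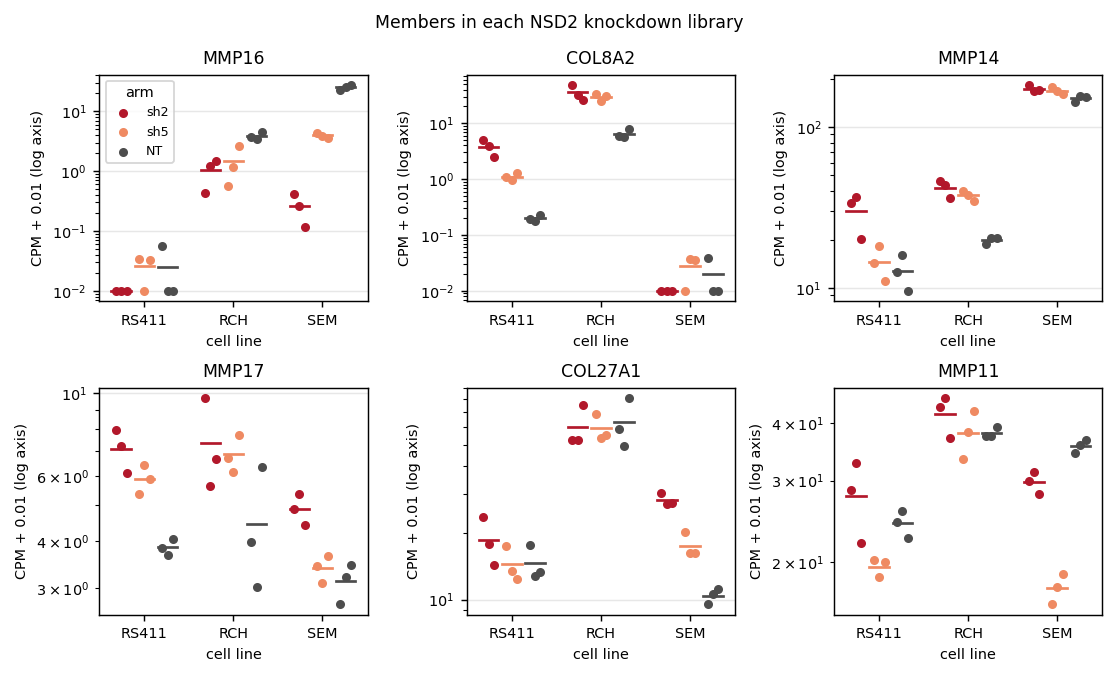
Levels of MMP16, COL8A2, MMP14, MMP17, COL27A1 and MMP11 in each library of the knockdown lines, in CPM + 0.01 on a log axis, with sh2 and sh5 left of NT, 1 point per library and a bar at the mean. COL8A2 is above NT in every hairpin library of RS411 and RCH, and MMP16 is below NT in every hairpin library of RCH and SEM.

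Fibrillar collagens went several ways. COL27A1 rose in SEM, with 30.1, 27 and 27.4 CPM with sh2 and 20.1, 16.2 and 16.1 CPM with sh5, against 9.52, 10.6 and 11.2 CPM with NT. No library of either hairpin overlapped with NT, and the log2 fold changes were 1.43 ± 0.10 (edgeR adjusted p = 5.13e-08) and 0.74 ± 0.10 (9.16e-05). COL5A2, a partner chain of COL5A1, fell in SEM, with 2.10, 1.82 and 1.86 CPM with sh2 and 1.90, 2.43 and 2.91 CPM with sh5, against 6.50, 3.50 and 3.79 CPM with NT. The value of 6.50 belonged to the NT library that stood apart. The log2 fold changes were -1.25 ± 0.23 (adjusted p = 0.000964) and -0.93 ± 0.23 (0.00931), and without that library -0.91 ± 0.20 (0.00280) and -0.59 ± 0.20 (0.0413). COL24A1, a fibrillar collagen of bone, had under 1 CPM in SEM and fell with sh2 (-1.73 ± 0.52, adjusted p = 0.0218), a call lost without NT replicate 2 or sh2 replicate 1 or 2 (up to 0.0916).

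Added NSD2 in 697 gave values for both of these genes in which the groups did not overlap. COL24A1 had 58.6, 38.1 and 45.6 normalized counts in EK and 64.5, 40.0 and 49.1 in WT, against 105, 95.5 and 90.01 in EV. COL5A2 had 111, 56.6 and 69.6 normalized counts in EK and 102, 79.0 and 69.0 in WT, against 36.6, 35.2 and 37.7 in EV. COL24A1 was the lower and COL5A2 the higher with added NSD2. The log2 fold changes of COL24A1 were -1.03 ± 0.26 and -0.93 ± 0.26 (limma adjusted p 0.412 and 0.726, and 0.0250 and 0.0410 with the replicate block), and those of COL5A2 were 1.04 ± 0.29 and 1.15 ± 0.29 (0.531 and 0.474, and 0.0437 and 0.0270 with the block).

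COL5A1, the most abundant member in Reh and RCH, was called in none of the 8 comparisons that tested it. In 697 it had 697, 2963 and 1765 normalized counts in EK and 879, 2101 and 1248 in WT, against 675, 3056 and 2103 in EV. Replicate 1 was lowest and replicate 2 highest in every arm. In RCH it had 522, 350 and 324 CPM with sh2 and 550, 241 and 130 CPM with sh5, against 524, 220 and 217 CPM with NT. Replicate 1 was the highest library of each arm there, by more than the arms differed.

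Among collagens of anchoring fibrils and fibril surfaces, COL7A1 (the anchoring fibril collagen of skin) fell in SEM with both hairpins. It had 7.65, 5.87 and 6.72 CPM with sh2 and 5.77, 5.30 and 5.71 CPM with sh5, against 9.44, 10.7 and 9.99 CPM with NT (-0.57 ± 0.12, edgeR adjusted p = 0.00176, and -0.84 ± 0.12, 0.000109). In RS411 its values lay the same way, 4.29, 3.73 and 4.07 CPM with sh2 and 3.49, 3.61 and 4.10 CPM with sh5, against 6.14, 8.93 and 5.65 CPM with NT (adjusted p 0.0560 and 0.0629, and 0.00724 and 0.00643 with the replicate block). In RCH the sh2 libraries were higher, at 15.8, 9.89 and 7.80 CPM, against 4.23, 2.09 and 3.39 CPM with NT (1.77 ± 0.49, adjusted p = 0.105). COL9A2 and COL9A3, cartilage collagens that sit on fibrils, both fell in SEM with sh2. COL9A3 had 2.82, 3.29 and 3.04 CPM with sh2 and 2.66, 3.77 and 3.995 CPM with sh5, against 5.11, 4.92 and 5.74 CPM with NT (-0.79 ± 0.16, adjusted p = 0.00187, and -0.60 ± 0.16, 0.0147). The sh5 call of COL9A3 was lost without NT replicate 3 or sh5 replicate 1 (up to 0.0643). COL9A2 had 7.96, 3.86 and 3.75 CPM with sh2, against 16.9, 11.7 and 9.48 CPM with NT (-1.28 ± 0.36, adjusted p = 0.0341), with replicate 1 the highest of each arm. Leaving out NT replicate 1 or 2 or sh2 replicate 2 or 3 ended that call (up to 0.111). With the replicate block its adjusted p was 2.17e-08 with sh2 and 3.46e-05 with sh5, where it was 0.198 without the block. COL12A1, which binds fibrils in dense connective tissue, had 0.128, 0.0627 and 0.105 CPM with sh2, against 1.16, 0.215 and 0.267 CPM with NT (-2.38 ± 0.73, adjusted p = 0.0273). Without the NT library that stood apart the value was -1.23 ± 0.58 (0.133) with sh2, and with sh5 it was 1.66 ± 0.43 (0.0119) in place of 0.51 ± 0.52 (0.554). That fit kept SEM sh5 replicate 3, which held DCN at 0.265 CPM, against 0 CPM in sh5 replicates 1 and 2. The part of this in the sh5 value was not tested. Leaving out any single sh2 library also ended the sh2 call.

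Further collagens met the 2-fold rule without passing the test. COL6A1, a chain of beaded microfibrils, had 1.14 and 1.60 CPM in Reh EK and 1.37 and 1.72 CPM in Reh WT, against 0.226 and 0.0731 CPM in EV (3.17 ± 0.51 and 3.34 ± 0.51, edgeR adjusted p 0.109 and 0.104). DESeq2 called COL6A1 in both arms (adjusted p 0.00383 and 0.00198). COL6A2, its neighbour on chromosome 21, stayed at or under 0.146 CPM in all 6 Reh libraries. COL6A3 had 1.85, 1.99 and 1.11 CPM in RS411 sh2, against 0.578, 0.832 and 0.802 CPM in NT (adjusted p 0.0771, and 0.00864 with the replicate block). COL19A1, a minor fibril-associated collagen, had 0.135, 0.0316 and 0.213 CPM in RS411 sh2 and 3.05, 1.37 and 5.88 CPM in RS411 sh5, against 0.739, 0.388 and 0.547 CPM in NT. The 2 hairpins thus lay on opposite sides of NT, with the same strand limit and with log2 fold changes of -2.05 ± 0.70 (adjusted p = 0.159, and 0.00289 with the block) and 2.61 ± 0.53 (0.0777, and 0.000191 with the block).

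Of the membrane-anchored metalloproteinases, MMP14 rose with knockdown. In RCH it had 46.0, 43.7 and 36.0 CPM with sh2 and 40.1, 37.9 and 34.9 CPM with sh5, against 18.8, 20.4 and 20.5 CPM with NT. In RS411 it had 33.7, 36.9 and 20.2 CPM with sh2 and 14.4, 18.2 and 11.0 CPM with sh5, against 12.6, 16.1 and 9.59 CPM with NT. The RCH hairpin libraries and the RS411 sh2 libraries did not overlap with NT, while RS411 sh5 did. The RCH log2 fold changes were 1.07 ± 0.13 with sh2 (edgeR adjusted p = 0.00709, and 0.0555 without NT replicate 2) and 0.92 ± 0.13 with sh5 (0.0692, and 0.0210 with the replicate block or 0.0499 without the library that stood apart). The RS411 sh2 value was 1.24 ± 0.28 (0.0673, and 8.53e-07 with the block). In SEM, which starts highest, MMP14 had 183, 166 and 170 CPM with sh2 and 178, 168 and 160 CPM with sh5, against 144, 157 and 154 CPM with NT. The SEM sh2 change was small, 0.19 ± 0.06 (adjusted p = 0.0237, and 0.0687 without NT replicate 1 or up to 0.102 without sh2 replicate 1), and the sh5 value of 0.15 ± 0.06 was not called (0.0800, and 0.0257 with the block).

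MMP16 (MT3-MMP) was lower in the knockdown arms of SEM and RCH. In SEM it had 0.409, 0.251 and 0.105 CPM with sh2 and 4.40, 3.88 and 3.55 CPM with sh5, against 22.8, 25.8 and 27.6 CPM with NT. The 3 arms were fully separate, with log2 fold changes of -6.61 ± 0.22 (edgeR adjusted p = 4.59e-11) and -2.69 ± 0.15 (2.40e-08). In RCH it had 0.421, 1.21 and 1.49 CPM with sh2 and 0.553, 1.15 and 2.61 CPM with sh5, against 3.70, 3.40 and 4.55 CPM with NT, also separate but not called (-1.88 ± 0.54, adjusted p = 0.116, and -1.43 ± 0.53, 0.999). In Reh, MMP16 had 1.44 and 0.837 CPM in EK and 1.96 and 2.06 CPM in WT, and no read in either EV library. That is 57 and 102 reads in EK and WT against 0 in EV, at least 19.8-fold and at least 36.5-fold higher over a floor of 3 reads in the EV group. DESeq2 called both arms (adjusted p 0.000449 in EK and 4.28e-05 in WT), and so did edgeR with the replicate block (6.72e-05 and 7.64e-06). By the main edgeR test WT was called (adjusted p = 0.0339) and EK was not (0.0604). The WT call was lost in all 4 fits without 1 library (0.139 to 0.162). RS411 held at most 2 MMP16 reads per arm. Exons of MMP16 overlap the antisense gene AC090578.1, with the same limit on strand as for COL18A1.

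MMP17 (MT4-MMP, tethered by a lipid anchor) rose in RS411 with sh2, at 7.96, 7.21 and 6.08 CPM, against 3.84, 3.66 and 4.05 CPM with NT (0.88 ± 0.15, edgeR adjusted p = 0.0209). The sh5 libraries, at 5.35, 6.41 and 5.86 CPM, were also above NT (0.61 ± 0.15), not called at an adjusted p of 0.115 and called with the replicate block (0.020). Leaving out any library but sh2 replicate 3 ended the sh2 call (0.0521 to 0.0995). In SEM it rose with sh2, with 4.86, 5.36 and 4.41 CPM, against 2.70, 3.20 and 3.44 CPM with NT (0.64 ± 0.15, adjusted p = 0.00412). In RCH it had 9.69, 5.64 and 6.63 CPM with sh2 and 6.69, 6.14 and 7.73 CPM with sh5, against 3.96, 3.00 and 6.33 CPM with NT, with overlap and no call. MMP15 (MT2-MMP) in RCH had 3.70, 2.84 and 2.48 CPM with sh2 and 3.82, 1.96 and 2.79 CPM with sh5, against 1.54, 1.04 and 1.86 CPM with NT, no overlap and no call (adjusted p 0.151 and 0.933).

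**Figure D5:**
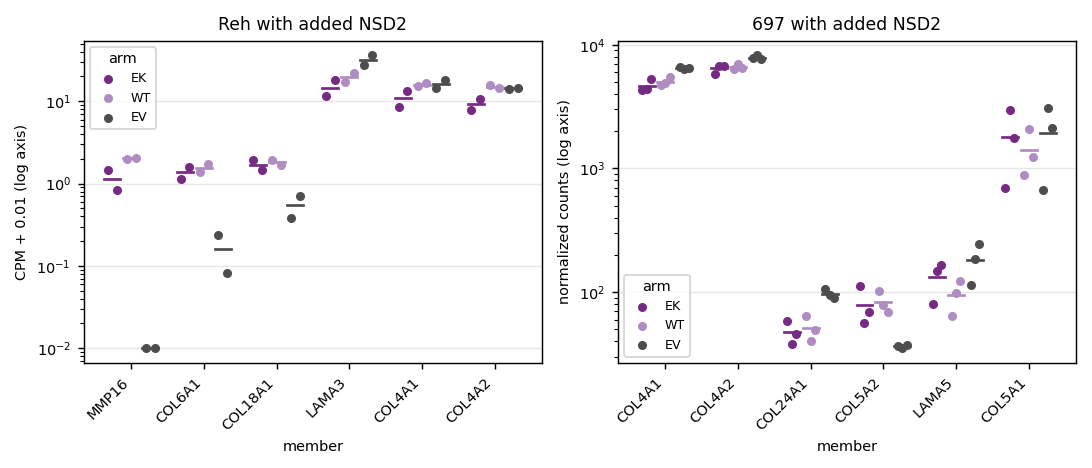
Levels of 6 members in each Reh library (CPM + 0.01) and of 6 members in each 697 library (normalized counts), on log axes, with EK and WT left of EV, 1 point per library and a bar at the mean. COL4A1 and COL4A2 lie below EV in every 697 library with added NSD2, and MMP16 has no reads in either Reh EV library.

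MMP11, the secreted metalloproteinase found in every line, fell in SEM with both hairpins. It had 29.9, 31.3 and 28.0 CPM with sh2 and 16.2, 17.7 and 18.8 CPM with sh5, against 34.5, 35.7 and 36.6 CPM with NT. The 3 arms did not overlap, with log2 fold changes of -0.26 ± 0.07 (edgeR adjusted p = 0.0158, up to 0.0822 without NT replicate 3 or sh2 replicate 3) and -1.02 ± 0.08 (2.40e-07). In RS411 its sh5 libraries, at 20.1, 18.5 and 19.9 CPM, lay below the 24.4, 25.7 and 22.6 CPM of NT without a call (-0.31 ± 0.13). MMP11 exons overlap CHCHD10 on the other strand. In RCH its log2 fold changes were 0.14 ± 0.13 and 0.00 ± 0.13, and in the arms with added NSD2 they lay between -0.14 and 0.14.

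Among the ADAMTS proteases, ADAMTS3 and ADAMTS1 fell with both hairpins in SEM. ADAMTS3, a procollagen N-proteinase that also activates VEGFC, had 3 reads in all with sh2 and 14 with sh5, against 153 with NT. The sh2 to NT ratio was 0.0193 (95% interval 0.00394 to 0.0576, for counting error only), and the sh5 log2 fold change was -3.47 ± 0.45 (edgeR adjusted p = 4.87e-05). In RCH, ADAMTS3 had 0.0936, 0.319 and 0.692 CPM with sh2 and 0.453, 0.729 and 0.871 CPM with sh5, against 1.25, 1.52 and 1.59 CPM with NT, without overlap and not called (0.0907 and 1). ADAMTS1, a protease that cuts the proteoglycan versican, had 3.58, 3.39 and 2.15 CPM with sh2 and 3.98, 3.83 and 2.51 CPM with sh5 in SEM, against 10.5, 10.2 and 9.85 CPM with NT (-1.74 ± 0.19, adjusted p = 6.18e-06, and -1.56 ± 0.19, 2.89e-05). ADAMTS9, which cuts versican too, fell with sh2, at 4.35, 3.39 and 3.67 CPM, against 6.13, 6.48 and 6.70 CPM with NT (-0.76 ± 0.14, adjusted p = 0.000894). Its sh5 libraries had 9.33, 7.30 and 7.01 CPM, all above NT and not called. Exons of ADAMTS3 overlap AC095056.1 on the other strand.

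The ADAMTS proteases tied to fibrillin microfibrils did not move as 1 group in SEM. ADAMTS17 rose with both hairpins, with 25.6, 24.9 and 21.0 CPM with sh2 and 26.2, 23.6 and 24.8 CPM with sh5, against 18.3, 17.9 and 16.2 CPM with NT (0.45 ± 0.09, edgeR adjusted p = 0.00148, and 0.51 ± 0.09, 0.000763). ADAMTS6 rose with sh5, at 27.1, 28.9 and 29.6 CPM, against 11.8, 15.5 and 12.5 CPM with NT (1.10 ± 0.11, adjusted p = 4.45e-06), while its sh2 libraries of 12.3, 15.5 and 15.2 CPM overlapped with NT. ADAMTS10 fell with sh5, at 17.9, 17.3 and 21.5 CPM, against 19.6, 26.0 and 25.8 CPM with NT (-0.33 ± 0.11, adjusted p = 0.0461), a call lost without NT replicate 2 or 3 or sh5 replicate 1 or 2 (up to 0.180). ADAMTS18 fell with sh2, at 17.3, 21.3 and 21.8 CPM, against 23.7, 30.2 and 29.6 CPM with NT (-0.47 ± 0.10, adjusted p = 0.00334). In RS411, ADAMTS6 had 3.69, 2.91 and 6.34 CPM with sh2, against 9.40, 8.73 and 9.99 CPM with NT (-1.11 ± 0.25, adjusted p = 0.0511, and 0.000655 with the replicate block).

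ADAMTS12, a protease of cartilage matrix, rose in RCH with sh2. It had 2.57, 2.59 and 2.62 CPM, against 0.587, 0.404 and 0.325 CPM with NT (2.56 ± 0.35, edgeR adjusted p = 0.0105). The sh2 libraries were tightly grouped and far above NT, and the call was lost without NT replicate 2 (0.0780) or 3 (0.0734). In 697, which expresses it more, ADAMTS12 had 363, 531 and 646 normalized counts in EK and 504, 469 and 591 in WT, against 877, 692 and 703 in EV. All 6 libraries with added NSD2 lay below all EV libraries, without a call (-0.59 ± 0.21 and -0.54 ± 0.21).

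Joint edgeR fits of the 3 knockdown lines asked which members moved on average over the lines and which moved differently between them. With sh2, 3 of 50 tested members had a higher mean response and 2 a lower one, beside 7.54% and 7.34% of all genes. MMP14 (0.84 ± 0.10, adjusted p = 3.39e-05), MMP17 (0.75 ± 0.14, 0.000997) and COL27A1 (0.58 ± 0.12, 0.00282) were higher, and COL9A2 (-0.67 ± 0.18, 0.0143) and MMP16 (adjusted p 0.00888) lower. The MMP16 mean gives RS411 the same weight as RCH and SEM, though RS411 had 0 reads with sh2 and 2 with NT. The MMP16 call depended on those few reads, since without RS411 NT replicate 1 its adjusted p was 0.99997. With sh5, 4 of 50 were higher and 1 lower, beside 2.78% and 2.88% of all genes. LAMA3 (0.62 ± 0.10, adjusted p = 0.000647), MMP14 (0.42 ± 0.09, 0.00718), MMP17 (0.45 ± 0.12, 0.0352) and COL8A2 (0.0439, with 2 against 1 reads in SEM) were higher, and MMP11 (-0.44 ± 0.05, 5.05e-05) was lower. The MMP17 call with sh5 ended without RS411 NT replicate 1 or 2, RS411 sh5 replicate 2, RCH sh5 replicate 3, SEM NT replicate 1 or 2, or SEM sh5 replicate 1 or 3 (0.0527 to 0.0679). The COL8A2 call ended without RS411 NT replicate 1 or 2, SEM NT replicate 2 or 3, or SEM sh5 replicate 2 or 3 (0.0519 to 0.241). Without the 3 libraries that stood apart, COL5A2 joined the lower members with sh2 (-0.70 ± 0.14, adjusted p = 0.00262) and with sh5 (-0.60 ± 0.13, 0.0145), and MMP17 with sh5 was lost (0.0904).

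The response differed between lines for 11 members with sh2 (8.37% of all genes) and 4 with sh5 (2.17%), by the test of the difference itself. With sh2 these were MMP16 (adjusted p = 0.000168), COL7A1 (0.000208), COL9A3 (0.00570), COL27A1 (0.00987), ADAMTS12 (0.0112), COL18A1 (0.0132), COL12A1 (0.0164), MMP14 (0.0190), ADAMTS3 (0.0211), LAMA5 (0.0234) and COL8A2 (0.0273). For 6 of these 11 a line had too few reads to be tested on its own, so the difference is read against a line with little or no measurable response. ADAMTS12 was testable in RCH alone, with 6 reads with sh2 and 13 with NT in RS411 and 1 and 2 in SEM. COL8A2 (0 reads with sh2 and 1 with NT) and COL18A1 (3 and 5) were not testable in SEM, and ADAMTS3 (1 and 0), COL12A1 (1 and 4) and MMP16 (0 and 2) were not in RS411. Beside the values above, COL27A1 had a log2 fold change of 0.35 ± 0.20 in RS411 and -0.07 ± 0.21 in RCH, and COL9A3 of 0.18 ± 0.17 and 0.99 ± 0.39. With sh5 they were MMP11 (0.000570), ADAMTS6 (0.00824), COL18A1 (0.0106) and COL19A1 (0.0224). Of these, COL18A1 was not testable in SEM (2 reads with sh5 and 5 with NT), and COL19A1 was testable in RS411 alone (2 and 8 reads in RCH, 0 and 7 in SEM). COL12A1 (0.0971) and LAMA5 (0.0747) with sh2 and ADAMTS6 (0.0509) and COL19A1 (0.0921) with sh5 were lost without the 3 libraries. With the replicate block the sh5 fit called 10 mean responses (13.7% of all genes) and 14 differences (7.78%).

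Lists of 110 related genes, 6 in all, gave the setting of these changes, and lists and members alike were drawn up with results of these data known. In SEM with sh2, 25 of 68 tested list genes rose and 9 fell, and with sh5 17 rose and 11 fell, beside the shares of all genes given above. Among genes that modify and cross-link collagen, 5 rose and 2 fell of 16 with sh2, and 4 rose and 2 fell with sh5. PLOD2, a lysyl hydroxylase, fell to 32.1 ± 3.96 CPM with sh2, against 89.2 ± 27.8 CPM with NT (SD, n = 3 each, log2 fold change -1.47 ± 0.23, edgeR adjusted p = 0.00308). COLGALT1, a collagen galactosyltransferase, rose with both hairpins (0.46 ± 0.06 and 0.35 ± 0.06). Of 10 protease inhibitors and activators, 4 rose and 2 fell with sh2 and 3 rose and 2 fell with sh5. A2M, the broad protease inhibitor alpha-2-macroglobulin, averaged 87.6 ± 9.12 CPM with sh2 and 41.4 ± 6.04 CPM with sh5, against 18.5 ± 3.12 CPM with NT (adjusted p 3.65e-07 and 0.000120). A2M also rose in 697 WT, to 95.1 ± 14.4 normalized counts, against 19.3 ± 3.51 in EV (limma adjusted p = 0.0184).

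Of 7 membrane ADAM proteases in SEM, 4 rose and 1 fell with sh2 (ADAM19 averaged 44.7 ± 4.75 CPM, against 15.5 ± 0.188 CPM with NT) and 1 rose and 1 fell with sh5. Of 15 matrix receptors, 7 rose and 1 fell with sh2, and 6 rose and 2 fell with sh5. ITGA6, the laminin-binding integrin chain, averaged 84.0 ± 5.21 CPM with sh2 and 67.1 ± 8.23 CPM with sh5, against 23.5 ± 2.58 CPM with NT. ITGA9 averaged 29.1 ± 1.58 CPM with sh5, against 3.84 ± 0.290 CPM with NT (2.92 ± 0.10, edgeR adjusted p = 1.49e-10). Of 17 other matrix glycoproteins and proteoglycans, 5 rose and 3 fell with sh2, and 3 rose and 4 fell with sh5. FBN2, a fibrillin of elastic microfibrils, fell to 2.58 ± 0.352 CPM with sh2 and 15.7 ± 1.66 CPM with sh5, against 51.9 ± 4.85 CPM with NT (-4.34 ± 0.12 and -1.73 ± 0.10, adjusted p 2.98e-12 and 2.28e-08). FBN2 fell in RS411 sh2 as well, where CD44 rose, while EMILIN2 and SRGN rose in RS411 sh5 and SRGN in RCH sh2. Of the 3 ADAMTS-like genes tested in SEM, edgeR called 0 with either hairpin, with 0 at an unadjusted p under 0.05 and 0 called by DESeq2. In the other 4 comparisons, 697 EK, Reh EK, Reh WT and RCH sh5, 0 list genes were called by limma or edgeR. Of 64, 62, 62 and 72 list genes tested, 4, 10, 8 and 6 had an unadjusted p under 0.05. The shares of all genes under it were 4.84%, 6.15%, 4.96% and 4.04%. The other tool run (edgeR for 697, DESeq2 for the others) called 0, 1, 3 and 0 list genes. Over all genes it called 24, 210, 139 and 91.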

How the data were processed

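RNA was extracted with RNeasy kits, made into stranded, ribosomal-RNA-depleted TruSeq libraries and read as 54 bases, per the labels' protocols. Trimmomatic, STAR, featureCounts and hg19 are named in the submitters' processing notes, with versions and strand setting not given in the sources used here. Raw counts of reads for each gene were deposited by the authors for every line but 697. For 697 they deposited normalized signal values, in which each library's reads had been divided by a constant. Dividing by the value of 1 read gave whole reads for 100% of values, within 0.001 reads. Rows named by a date in place of a gene, 27 per knockdown line, were dropped (0.214%, 0.247% and 0.230% of reads in RS411, RCH and SEM), and 6 columns that match no sample were not used.

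The count tables went through edgeR 4.0.16 under R 4.3.3 (robust quasi-likelihood F-test, TMM, filterByExpr, 3 arms of a line in 1 fit), and 697 through limma 3.58.1 after adding 1 to the normalized counts and taking log2, over genes whose mean reached 10. Calls are at a p under 0.05 after Benjamini-Hochberg adjustment over all genes tested. Joint edgeR fits of NT with each hairpin tested the mean response of the knockdown lines and its difference between them. The fits were also run on simulated counts with an arm effect and no replicate effect. That run does not cover same-numbered libraries that deviate together. Levels are TMM-scaled CPM (697: the authors' normalized counts), log2 fold changes carry standard errors, and intervals and floors cover counting error only. Lengths are those of the longest GENCODE coding transcript, and promoters come from RefSeq, which matched 64 of the 97 members. Same-numbered libraries deviated together in 697, in RS411, in RCH sh5 and in SEM (correlation of each pair of deviations 0.200 to 0.746), not in RCH sh2 (-0.00155 to 0.371). Reh had correlations of 0.727 in EK and 0.754 in WT. With 2 libraries per arm the deviations mirror each other, so whether Reh numbers pair could not be told. The labels do not say what the numbers stand for, so the pairing comes from these correlations.

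The text names the members called in a comparison (the 8 smallest p where there are more), the 5 highest members of each line, up to 3 uncalled members per comparison with a 2-fold change without overlap, those of the joint tests, and up to 3 called genes per related list. Others named were chosen after their values were seen. The members and lists were chosen with earlier results of these data known. DESeq2 1.42.0, other scalings and filters, the replicate block and the fits without single libraries were alternatives. Tables were handled with pandas 2.3.3 and numpy 2.4.6 in Python 3.11.15, and figures drawn with matplotlib 3.10.9.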

Additional observations from a re-analysis of the deposited data

Results flagged for a closer look

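The response to sh2 differed between RS411, RCH and SEM in the edgeR test of the difference itself for 11 members, with adjusted p values of 0.000168 (MMP16), 0.000208 (COL7A1), 0.00570 (COL9A3), 0.00987 (COL27A1), 0.0112 (ADAMTS12), 0.0132 (COL18A1), 0.0164 (COL12A1), 0.0190 (MMP14), 0.0211 (ADAMTS3), 0.0234 (LAMA5) and 0.0273 (COL8A2). The response to sh5 differed for MMP11 (0.000570), ADAMTS6 (0.00824), COL18A1 (0.0106) and COL19A1 (0.0224). With sh2, ADAMTS12 was testable on its own in RCH alone, COL8A2 and COL18A1 were not in SEM, and ADAMTS3, COL12A1 and MMP16 were not in RS411. With sh5, COL19A1 was testable in RS411 alone and COL18A1 was not in SEM, so these differences are read against lines with few or no reads. NSD2 itself was called lower by edgeR in SEM and not in RS411 or RCH, while DESeq2 also called it in RS411 with both hairpins and in RCH with sh2. The part of that in these differences was not tested.

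In the EK arm 2 members lay in opposite directions in Reh and 697 with every library on its side, which was not tested as a difference. LAMA3 had a log2 fold change of -1.11 ± 0.26 in Reh and 0.53 ± 0.25 in 697. MMP17 had one of 0.30 ± 0.17 in Reh and -0.34 ± 0.20 in 697. Neither was called in the main tests. COL1A1 (0.39 in Reh and 0.55 in 697), COL24A1 (-1.73 and -1.03), COL4A1 (-0.58 and -0.48), COL4A2 (-0.64 and -0.30) and COL5A2 (1.04 and 1.04) lay in the same direction. These too had every library on its side and no call in the main tests, with n = 2 per arm in Reh. The share of all genes separated in this way in both lines was not counted, so the numbers of members are not read as a result.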

How the results depend on the processing

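Of the 64 results for single members and NSD2, leaving out 1 library gave 488 values, of which 49 lost and 7 gained a call, and the other settings gave 307, of which 4 lost and 47 gained one. None of these values changed direction. In Reh a left-out library leaves an arm with 1 sample, which is assumed to vary like the other arms. Counts below give members called and then all genes called. DESeq2 called 3 and 210 in Reh EK (0 and 34 in the main test), 2 and 139 in Reh WT (1 and 35), 9 and 950 in RS411 sh2 (3 and 286), 5 and 314 in RS411 sh5 (2 and 82), 9 and 1077 in RCH sh2 (3 and 239) and 2 and 91 in RCH sh5 (1 and 4). With no filter on low counts there were 4 and 329, 4 and 237, 9 and 1281, 8 and 578, 16 and 1937, and 4 and 199 in those comparisons. With the replicate block there were 13 and 1027, 8 and 629, 10 and 2495, 6 and 929, 11 and 1623, and 2 and 46. In SEM sh5 the block called 5591 genes, against 3623. In 697 the replicate block called 3 and 223 in EK (0 and 28) and 3 and 219 in WT (0 and 31), and the block with edgeR on recovered reads called 3 and 189 in EK and 4 and 205 in WT. Genes called in 697 were 17 and 18 with a minimum mean of 50, and 47 and 53 with none. In the joint fits, no filter called 10 means and 24 differences with sh2 (5 and 11) and 18 differences with sh5 (4), and the block called 8 means with sh2, and 10 means and 14 differences with sh5 (5 and 4). Without the 3 libraries that stood apart, a setting chosen after seeing the data, there were 118 genes in RS411 sh2, 0 members and 12 genes in RS411 sh5, 74 genes in RCH sh2, 2 members and 13 genes in RCH sh5 and 2 differences with sh5. The cause of these shifts was not tested. Over all genes the block called 3223 differences with sh2 (1639), and 2688 means and 1521 differences with sh5 (1106 and 424). Blocking moved no other count by over 1.5 times.

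Leaving out 1 library gave 0 to 0 members and 0 to 4 genes in Reh EK, 0 to 0 and 0 to 8 in Reh WT, 0 to 0 and 17 to 24 in 697 EK, 0 to 0 and 18 to 29 in 697 WT, 1 to 9 and 11 to 1560 in RS411 sh2, 0 to 3 and 5 to 76 in RS411 sh5, 1 to 5 and 15 to 620 in RCH sh2, 0 to 1 and 0 to 2 in RCH sh5, 14 to 18 and 3915 to 4832 in SEM sh2, and 11 to 14 and 2648 to 3899 in SEM sh5. The joint fits gave 4 to 8 means and 9 to 15 differences with sh2, and 3 to 7 and 3 to 6 with sh5. At 21876505 to 67651596 reads per library, members under about 1 CPM rest on few reads, and 39 of 97 could not be tested in any line.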
